A study of Mus musculus with 9 samples.

Results

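The genes described here encode the subunits and regulators of the proteasome in ovulated mouse eggs. They were chosen by symbol: every gene in the deposited tables that starts with Psma, Psmb, Psmc, Psmd, Psme, Psmf or Psmg was taken. Pseudogene symbols (containing -ps) were to be left out, of which there were 0. The rule gave 50 genes of 24736 and used no measured value, although it was chosen with earlier results of these data known. Of these, 47 passed the filter on low counts, and Psma8, Psmb9 and Psme2b did not. One of the 50, Psmc3ip, carries the prefix because its protein was first found as a partner of a proteasome ATPase. It encodes a cofactor of meiotic recombination, so the sums below cover the other 49 genes.

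RNA was measured in 9 libraries, each made from 15 oocytes at metaphase II from 1 ICR female, with 3 females per group. KYZY females (Kai Yu Zhong Yu, a herbal recipe) went through 6 weeks of daily stressors and then received 0.1 ml of the decoction by gavage per day for 4 weeks. The stress group had chronic unpredictable mild stress for 6 weeks, and control females had none. The labels give an age of 4 to 5 weeks for all 3 groups. With 6 weeks of stress, and 4 further weeks of KYZY, this cannot be the age of those females at collection. Any difference in age at collection cannot be told apart from the treatments. Every female received 7.5 IU of PMSG and 7.5 IU of hCG, and the cumulus-oocyte complexes were taken 16 hours after hCG and stripped with hyaluronidase at 100 IU/ml. The labels name no stressed group that received vehicle or waited for the same 4 weeks. They also describe the sequencing of the KYZY libraries differently from that of the other 6, so that sequencing and recipe cannot be told apart in any comparison with KYZY.

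Proteasomes degrade proteins that carry ubiquitin chains. The core particle is a stack of rings of alpha and beta subunits, with the active sites on Psmb5, Psmb6 and Psmb7 inside. The 19S regulatory particle caps the core, binds ubiquitin chains and unfolds the substrate with a ring of ATPases. In eggs, proteasomal destruction of cyclin B and securin drives the exit from meiosis, and maternal proteins are degraded through the same route after fertilization. Cells exposed to interferon gamma exchange the catalytic subunits for Psmb8, Psmb9 and Psmb10, which form the immunoproteasome, and make the activator PA28 from Psme1 and Psme2.

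Library totals lay between 46324094 and 106990821 counts, and 13257 to 15802 genes were above 0. Levels below are CPM, the customary count unit relative to the TMM-scaled library total, given in the order of library number within each group. A level under 3 read pairs (12 counts) was taken as below the counting limit, which lay between 0.105 and 0.245 CPM depending on the library. All 12 oocyte markers examined, such as Zp3 and Gdf9, were above 0 in every library. The 33 markers of cumulus and granulosa cells summed to 767, 1818 and 1306 CPM in KYZY oocytes, 698, 736 and 1442 CPM in stress oocytes and 745, 623 and 912 CPM in control oocytes, with Pgr and Areg at 0 everywhere. KYZY 2, KYZY 3, control 3 and stress 3 had the highest scores for this list (mean of log2(CPM + 1)), at 2.52, 2.48, 2.02 and 1.78, and the other 5 libraries scored between 0.77 and 1.05. In bulk libraries of this kind, fewer cells of a type and less RNA per cell cannot be told apart.

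Psma7, an alpha ring subunit on chromosome 2 (GRCm38 chr2:180036374-180042433, minus strand), had the highest level of all 50 genes, also per length. It had 856, 1170 and 880 CPM in KYZY oocytes, 1023, 986 and 1503 CPM in stress oocytes and 1418, 873 and 989 CPM in control oocytes. The 3 groups overlapped, and the highest library of the 9 was stress 3. Psmd4, the ubiquitin receptor of the 19S particle (chr3:95032694-95042614, minus strand), had 502, 530 and 371 CPM in KYZY, 446, 431 and 563 CPM in stress and 553, 375 and 414 CPM in control oocytes. Psmf1, known as PI31 and described as an inhibitor of the core particle in vitro, had 445, 399 and 302 CPM in KYZY, 546, 597 and 503 CPM in stress and 528, 287 and 361 CPM in control oocytes. All 3 KYZY libraries lay below all 3 stress libraries for Psmf1, while the control libraries spanned both ranges. Psma7 alone took 23.4% to 32.2% of the counts of the 49 proteasome genes in a library, and Psma7, Psmd4 and Psmf1 together took 45.1% to 55.2%.

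Summed over the 49 genes, the level was 3660, 4160 and 3444 CPM in KYZY oocytes, 3902, 3830 and 4664 CPM in stress oocytes and 4530, 3319 and 3718 CPM in control oocytes. The mean was 3755 ± 367 CPM in KYZY, 4132 ± 462 CPM in stress and 3856 ± 617 CPM in control oocytes (SD, n = 3 each). The sums overlapped among all 3 groups, and the group means differed by less than the SD within the control group.

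Subunits that assemble in equal numbers into a ring had unequal mRNA levels. To compare genes, CPM was divided by the length of the longest annotated transcript that is matched to RefSeq, which gave CPM per kb. In the alpha ring, Psma7 averaged 1179 CPM per kb over the 9 libraries, and Psma3, the lowest, averaged 4.48 CPM per kb, a ratio of 263. The same pair was highest and lowest in 9 of 9 libraries, and the ratio within a library lay between 128 and 494. With the length of all exons together in place of the longest transcript the ratio was 107. In the beta ring the ratio of the extremes was 37, between Psmb3 at 56.6 CPM per kb and Psmb7 at 1.53 CPM per kb. The lowest beta subunit was not the same in every library: Psmb7 was the lowest in 3 of 9, and the ratio ranged between 21.1 and 313.

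The 6 ATPases of the 19S base differed least. Psmc5 was the highest at 18.3 CPM per kb and Psmc3 the lowest at 5.19 CPM per kb, a ratio of 3.52, or 6.6 with the length of all exons, by which Psmc2 was the lowest. Psmc5 had 19.7, 26.5 and 37.4 CPM in KYZY, 22.6, 19.6 and 18.9 CPM in stress and 20.8, 21.2 and 30.1 CPM in control oocytes, with KYZY 3 and control 3 highest and the groups overlapping. Psmc6 lay between 14.8 and 20.4 CPM. The 11 non-ATPase subunits spanned a ratio of 660, between Psmd4 at 349 CPM per kb and Psmd13 at 0.529 CPM per kb. This ratio rests on Psmd13, which was at 0 in 2 libraries, so that no ratio exists there, and the lowest ratio within a library was 131. Psmd13, a lid subunit, had 0, 1.44 and 4.22 CPM in KYZY, 0.331, 0.803 and 0.621 CPM in stress and 0, 0.191 and 1.86 CPM in control oocytes. It was listed at 0 in KYZY 1 and control 1, and its exons overlap those of Sirt3, so reads of the 2 genes cannot be separated in an unstranded protocol. The scaffold subunit Psmd1 ranked among the highest genes per length after Psmd4, with 266, 321 and 296 CPM in KYZY, 295, 291 and 341 CPM in stress and 315, 287 and 300 CPM in control oocytes. It varied little between libraries, and its groups overlapped. Psmd2 of the base and Psmd3 of the lid lay between 98.8 and 187 CPM in the 9 libraries, and the lid subunit Psmd11 lay between 185 and 290 CPM. Psmd8 and Psmd12 lay between 20.1 and 73.2 CPM, Psmd6 between 4.2 and 11 CPM, and Psmd14, the deubiquitinase of the lid, between 6.28 and 11 CPM. Their groups overlapped in all 3 comparisons. Exons of Psmd1 overlap those of Htr2b, those of Psma4 overlap AY074887 and those of Psmc3ip overlap Mlx, which limits these counts in the same way, and RefSeq lists a pseudogene copy of Psma5.

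**Figure D1:**
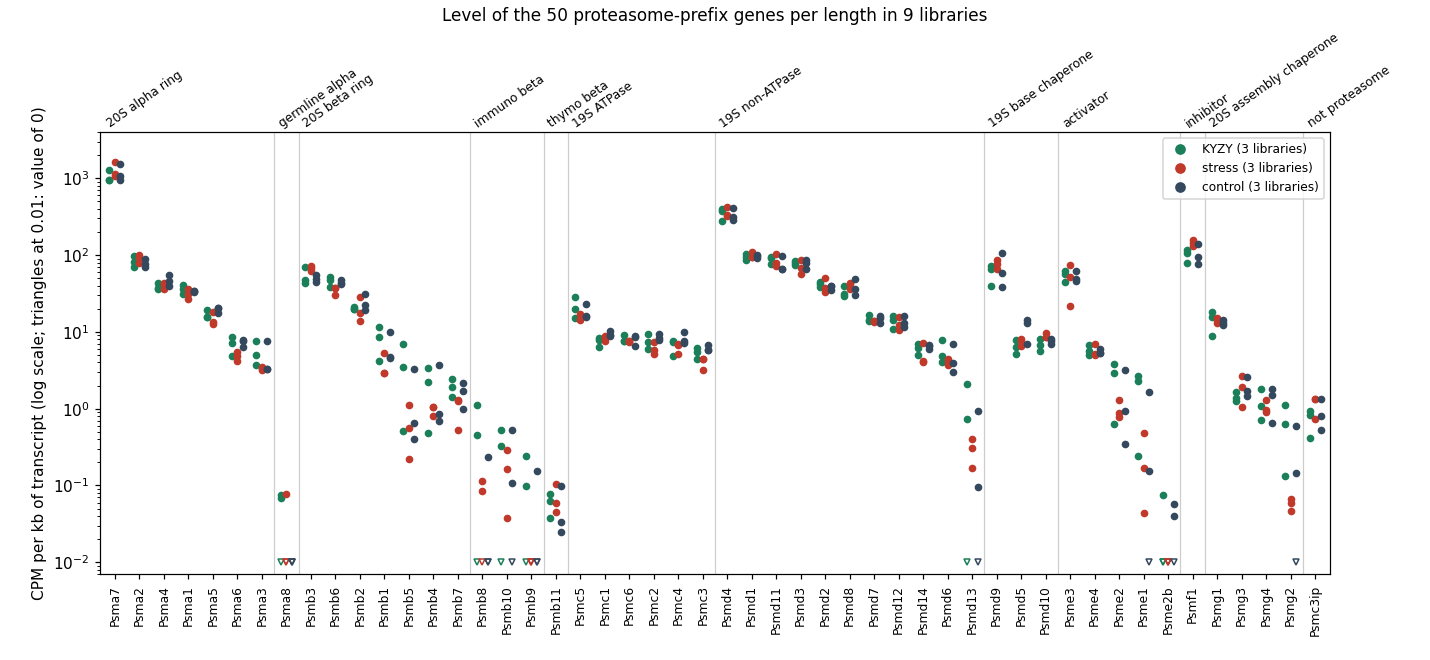
Level of each of the 50 genes per kb of transcript (log axis) in the 9 libraries, with KYZY, stress and control points side by side and genes sorted by level within each role. Psma7 stands above the other alpha ring subunits, and Psmd4 above the other non-ATPase subunits, in every library. The points of Psmb5, Psmb8, Psmb9, Psmd13, Psme1 and Psmg2 are widely spread and include 0 (open triangles) for all of these but Psmb5.

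The other alpha subunits lay between these extremes. Psma2 had 238, 284 and 203 CPM in KYZY, 228, 263 and 295 CPM in stress and 262, 203 and 221 CPM in control oocytes, and its groups overlapped. Psma1 and Psma4 lay between 32.1 and 64.6 CPM in the 9 libraries. Psma5 had 19.3, 24 and 19.1 CPM in KYZY, 16.6, 15.9 and 22.2 CPM in stress and 25.5, 25.6 and 21.8 CPM in control oocytes, with stress 3 just above the lowest control library. Psma3 had 10.7, 14.1 and 21.4 CPM in KYZY, 9.8, 9.18 and 9.47 CPM in stress and 9.44, 9.39 and 21.4 CPM in control oocytes. KYZY 3 and control 3 were the high libraries, and all 3 KYZY libraries lay above all 3 stress libraries. Psma8, the alpha subunit of male germ cells, was listed at 0 in 6 of 9 libraries. It had 0.126, 0.117 and 0 CPM in KYZY oocytes, 0, 0.131 and 0 CPM in stress oocytes and 0 CPM in each control library, and only stress 2 exceeded its limit of 3 read pairs.

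Among the catalytic subunits, Psmb6 was the highest per length. This caspase-like subunit had 38.3, 30.5 and 41.5 CPM in KYZY, 24.4, 29.5 and 30.2 CPM in stress and 33.3, 34 and 37.6 CPM in control oocytes. The stress libraries lay below both other groups without overlap. Psmb5, the chymotrypsin-like subunit (chr14:54614119-54618022, minus strand), had 0.458, 3.11 and 6.18 CPM in KYZY, 0.196, 0.506 and 0.993 CPM in stress and 0.364, 0.592 and 2.94 CPM in control oocytes. KYZY 3, KYZY 2 and control 3 were the 3 high libraries, and KYZY 1 lay within the range of the stress and the low control libraries. Psmb7, the trypsin-like subunit, had 1.67, 2.2 and 2.86 CPM in KYZY, 0.613, 1.51 and 1.46 CPM in stress and 1.16, 1.98 and 2.53 CPM in control oocytes. Its KYZY libraries were all above its stress libraries, and both groups overlapped with control. Exons of Psmb5 overlap Mir686 and those of Psmb7 overlap Nek6, and RefSeq lists pseudogene copies of Psmb5, Psmb6 and Psmb7, so the counts of these genes may include reads of other loci or lack some of their own.

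The immunoproteasome counterparts had low levels, and each was listed at 0 in 2 or more libraries. Psmb8 (chr17:34197721-34201454) had 0, 0.749 and 1.82 CPM in KYZY, 0, 0.14 and 0.186 CPM in stress and 0, 0 and 0.378 CPM in control oocytes. Psmb9, which lies beside it in the major histocompatibility complex and overlaps Tap1, had 0, 0.132 and 0.326 CPM in KYZY, 0 CPM in each stress library and 0, 0 and 0.208 CPM in control oocytes. It passed the limit of 3 read pairs in KYZY 3 and control 3 only. Psmb10 had 0, 0.426 and 0.694 CPM in KYZY, 0.0491, 0.384 and 0.217 CPM in stress and 0, 0.143 and 0.69 CPM in control oocytes. Per length, Psmb8 reached at most 0.162 of the level of Psmb5 in any library, Psmb9 at most 0.00465 of Psmb6 and Psmb10 at most 0.242 of Psmb7. With the length of all exons together, these maxima were 0.0781 for Psmb8, 0.00403 for Psmb9 and 0.548 for Psmb10. Psmb11, the beta subunit of the thymus, lay between 0.104 and 0.442 CPM.

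The non-catalytic beta subunits also held genes of high and of low level. Psmb3 had 52.9, 36.2 and 33.4 CPM in KYZY, 52.4, 46.9 and 55.1 CPM in stress and 41.8, 37 and 34.6 CPM in control oocytes. Its 3 stress libraries lay above its 3 control libraries, and KYZY 1 lay with the stress libraries. Psmb1 had 7.33, 15.2 and 20 CPM in KYZY, 5.18, 5.18 and 9.24 CPM in stress and 8.1, 8.28 and 17.3 CPM in control oocytes, and KYZY 2, KYZY 3 and control 3 were again the high libraries. Psmb4 had 0.569, 2.61 and 4.06 CPM in KYZY, 0.957, 1.25 and 1.23 CPM in stress and 0.827, 1 and 4.36 CPM in control oocytes, with the same 3 libraries high. Psmb2 lay between 11.9 and 26.7 CPM, with no such order.

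PA28, the 11S activator, has a cytosolic form made of Psme1 and Psme2 and a nuclear form made of Psme3. Psme1 (chr14:55578123-55581529) had 0.268, 2.57 and 2.96 CPM in KYZY, 0.0491, 0.541 and 0.186 CPM in stress and 0, 0.172 and 1.82 CPM in control oocytes. Its neighbour Psme2 (chr14:55587441-55591113) had 0.616, 2.78 and 3.71 CPM in KYZY, 0.76, 1.26 and 0.838 CPM in stress and 0.331, 0.888 and 3.1 CPM in control oocytes. KYZY 2, KYZY 3 and control 3 were the 3 highest libraries for both genes. Psme2b, a near-copy of Psme2 on chromosome 11, did not pass the limit of 3 read pairs in any library. Psme3, the highest activator per length, had 117, 167 and 152 CPM in KYZY, 196, 137 and 57.8 CPM in stress and 121, 131 and 166 CPM in control oocytes. The 3 stress libraries of Psme3 included the highest and the lowest of all 9. Psme4, the activator PA200, had 32.8, 44.3 and 36.3 CPM in KYZY, 33.9, 32.8 and 45.6 CPM in stress and 34.4, 34 and 38.9 CPM in control oocytes, and its groups overlapped. Psme2, Psme3 and Psme4 passed the counting limit in all 9 libraries and Psme1 in 6. Exons of Psme1 overlap those of Emc9.

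**Figure D2:**
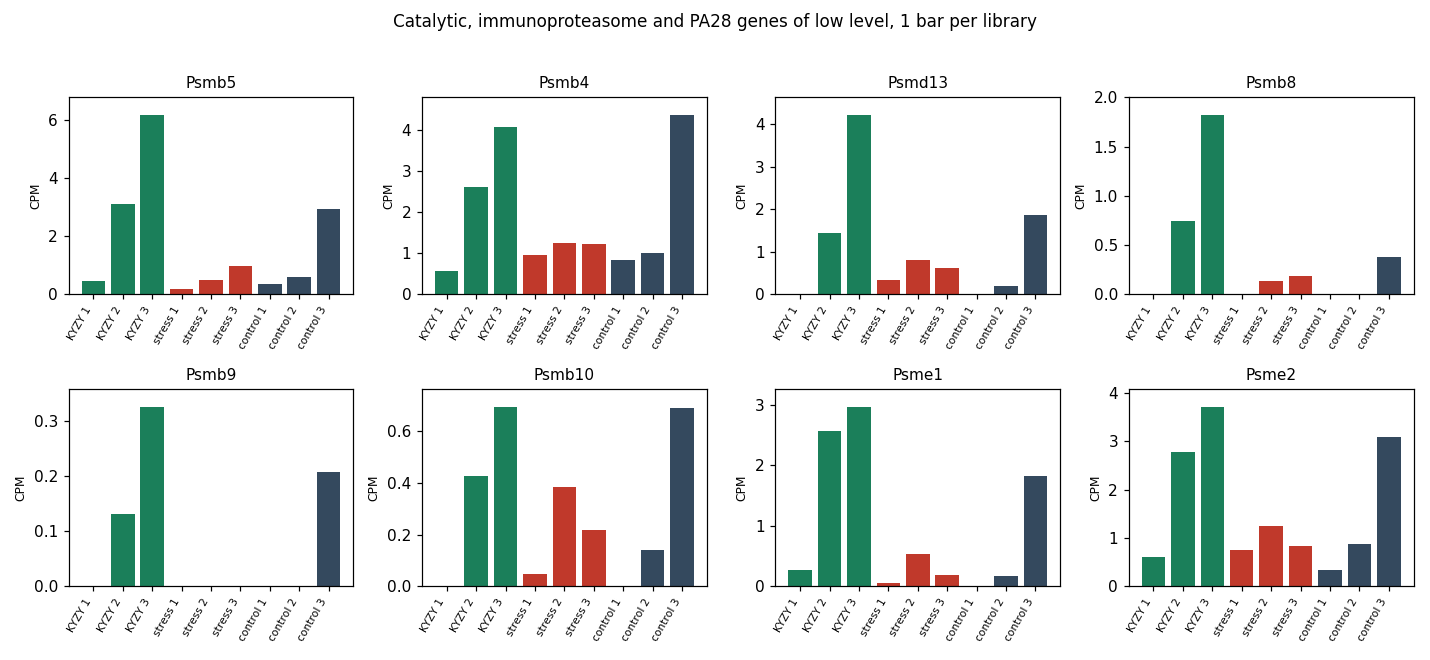
CPM of Psmb5, Psmb4, Psmd13, Psmb8, Psmb9, Psmb10, Psme1 and Psme2 with 1 bar per library (KYZY, stress, control from left to right, each axis from 0). KYZY 2, KYZY 3 and control 3 are the 3 highest bars in all 8 panels.

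Chaperones of 20S assembly act as 2 pairs. Psmg1 had 18.9, 9.35 and 16.1 CPM in KYZY, 15.6, 14.7 and 13.6 CPM in stress and 13.7, 12.8 and 14.9 CPM in control oocytes, with KYZY 1 highest and KYZY 2 lowest of all 9. Its partner Psmg2 had 0.142, 0.675 and 1.18 CPM in KYZY, 0.0491, 0.0698 and 0.0621 CPM in stress and 0, 0.153 and 0.638 CPM in control oocytes. Psmg2 passed the limit of 3 read pairs in 4 of 9 libraries, and all 3 KYZY libraries lay above all 3 stress libraries. KYZY 1 and the stress libraries were below that limit. Psmg3 and Psmg4 lay between 0.364 and 2.38 CPM. Psmc3ip, the recombination cofactor, had 0.537, 1.19 and 1.08 CPM in KYZY, 1.7, 1.72 and 0.947 CPM in stress and 0.678, 1.74 and 1.04 CPM in control oocytes, and its groups overlapped.

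The 19S base has 3 chaperones among the members. Psmd5 (chr2:34849734-34874968, minus strand) had 34, 28.1 and 22.3 CPM in KYZY, 28.6, 33.5 and 35.2 CPM in stress and 57.5, 62.5 and 30.2 CPM in control oocytes. Control 1 and control 2 stood above the other 7 libraries, and control 3 lay among them. Psmd10, also called gankyrin, had 11.5, 8 and 9.73 CPM in KYZY, 13.9, 12.4 and 12.3 CPM in stress and 10.8, 11.7 and 10 CPM in control oocytes. Its stress libraries lay above both other groups without overlap. Psmd9 had 188, 174 and 104 CPM in KYZY, 198, 173 and 223 CPM in stress and 279, 151 and 99.4 CPM in control oocytes, with KYZY 3 and control 3 lowest.

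The first comparison set stress against control. None of the 47 members tested was called at an adjusted p of 0.05 by edgeR's quasi-likelihood test with Benjamini-Hochberg adjustment over 13890 genes, and 0% of all genes tested were called. DESeq2 called 0 members as well. At an unadjusted p under 0.05 there were 3 members, all lower in stress, while 2.69% of all genes met that level. Groups did not overlap for 5 members that were lower in stress (Psma6, Psmb6, Psmc2, Psmc3 and Psmc4) and for 2 that were higher (Psmb3 and Psmd10). Over all genes tested, 4.38% were lower and 3.51% higher without overlap. The log2 fold change was negative for 32 of 47 members and positive for 15, Psmc3ip among the latter. Positive were thus 31.9% of the members, against 46% of all genes tested. The median was -0.19 over the members, against -0.03 over all genes tested. Past 2-fold, 0 members were higher, against 3.56% of all genes, and 3 were lower, against 8.57%. Without control 3 the median of the members was 0.02, against 0.03 over all genes. With the replicate block, the median was -0.10 over the members and 0 over all genes.

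The smallest p value in this comparison belonged to Psmc3, an ATPase of the 19S base. It had 7.29, 7.33 and 5.26 CPM in stress oocytes and 11.2, 9.53 and 9.61 CPM in control oocytes, and the KYZY libraries at 7.31, 10.1 and 8.86 CPM overlapped with both ranges. The log2 fold change was -0.61 (SE 0.226, unadjusted p = 0.0222, adjusted p = 1 by edgeR). Exons of Psmc3 overlap those of Slc39a13. Psma6, an alpha subunit, had 5, 5.69 and 4.3 CPM in stress and 8.15, 6.68 and 7.96 CPM in control oocytes, and KYZY oocytes had 5.01, 7.44 and 9 CPM. Its fold change was -0.60 on the log2 scale (SE 0.261, unadjusted p = 0.0425). For Psmd5, with the values given above, the log2 fold change was -0.63 (SE 0.279, unadjusted p = 0.0484). Psmd5 was the member that passed the threshold when the 4 libraries with the highest cumulus scores were left out, with a log2 fold change of -0.94 (adjusted p = 0.0434 by edgeR, range over all alternatives 0.0434 to 1). That fit rests on 2 stress and 2 control libraries, with 1 KYZY library left, and it called 148 of 14220 genes tested (1.04%).

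Psmb3 and Psma5 followed in the order of p values. Psmb3 was higher in stress than in control by 0.44 on the log2 scale (SE 0.212, unadjusted p = 0.0613), and Psma5 was lower, with a log2 fold change of -0.42 (SE 0.199, unadjusted p = 0.0628). By role, the fold change was negative for 6 of 6 ATPases, with a median of -0.32 and a range of -0.61 to -0.1. Over all genes tested, 46% were positive. Psmc2 had 9.2, 10.4 and 13.2 CPM in stress and 13.8, 16.7 and 14.7 CPM in control oocytes, without overlap. Psmc4 had 9.6, 7.46 and 9.93 CPM in stress and 14.4, 10.5 and 11 CPM in control oocytes, also without overlap, and Psmc1, Psmc5 and Psmc6 overlapped. Summed over the 6 ATPases, the level was 79.4, 74.9 and 76.4 CPM in stress oocytes and 89.5, 93.2 and 99.3 CPM in control oocytes, and KYZY oocytes had 74.4, 93.2 and 102 CPM. No test was run on this sum, since it was read after the values of its members were known. The ATPases were the only role whose sums separated stress from control. In the alpha ring, for example, the sums were 1370, 1360 and 1919 CPM in stress and 1810, 1223 and 1355 CPM in control oocytes. The beta ring had a median of -0.66 with 6 of 7 negative, but that median was -0.26 without control 3 and -0.40 with the replicate block. In the 11 non-ATPase subunits the median was -0.08, with 5 positive and 6 negative, and 0.04 with the replicate block. The median of the ATPases was -0.31 with the block.

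**Figure D3:**
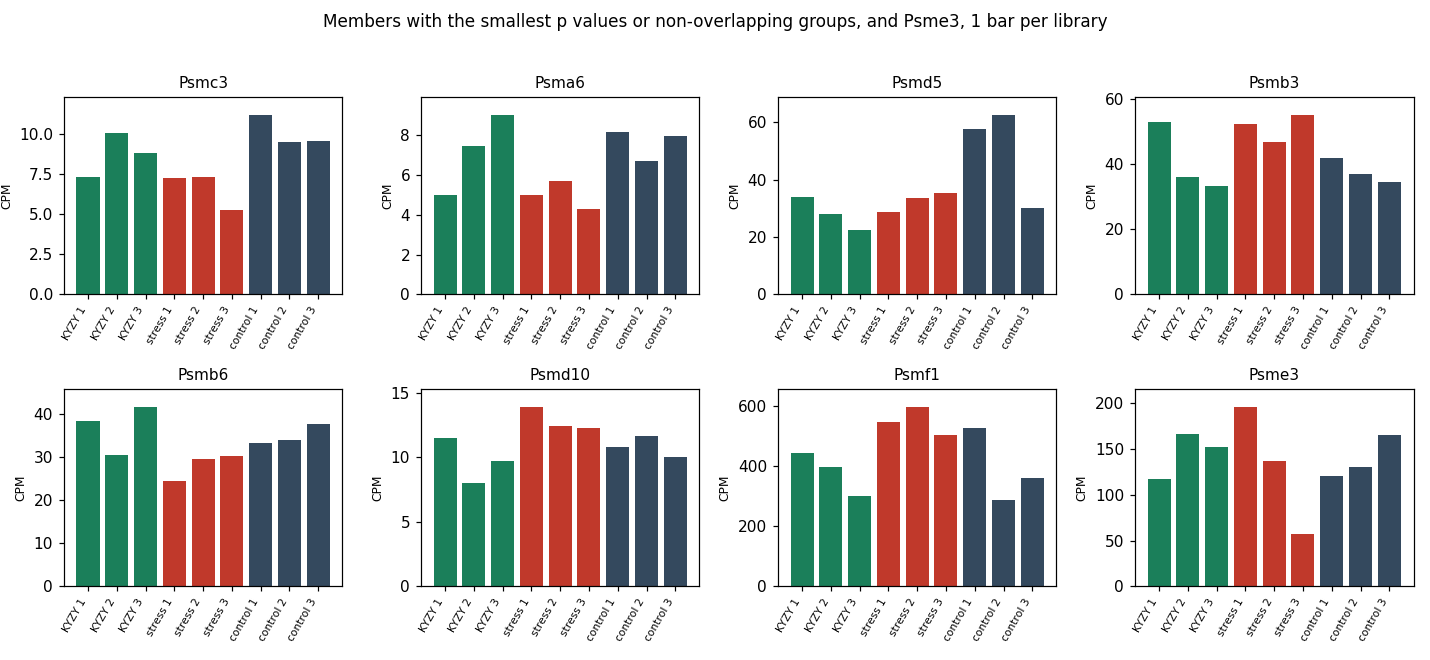
CPM of Psmc3, Psma6, Psmd5, Psmb3, Psmb6, Psmd10, Psmf1 and Psme3 with 1 bar per library (KYZY, stress, control from left to right, each axis from 0). The stress bars of Psmc3, Psma6 and Psmb6 lie below all control bars, those of Psmb3 and Psmd10 lie above them, and the bars of Psmd5 are tallest in control 1 and control 2.

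KYZY was then set against stress. The edgeR test called 0 of 47 members and 0% of all genes, and DESeq2 called 0 members. Unadjusted p was under 0.05 for 3 members, all higher in KYZY, against 3.98% of all genes tested. Groups did not overlap for 5 members that were higher in KYZY (Psma3, Psmb6, Psmb7, Psmd7 and Psmg2), against 3.76% of all genes, and for 2 that were lower (Psmd10 and Psmf1), against 5.44%. The fold change was positive for 32 of 47 (68.1%), against 50.8% of all genes, and negative for 15. Its median was 0.13 on the log2 scale, against 0.01 over all genes. Of the 47, 8 were past 2-fold higher, against 14.6% of all genes, and 0 past 2-fold lower, against 3.16%. The 8 (Psmb1, Psmb4, Psmb5, Psmb8, Psmd13, Psme1, Psme2 and Psmg2) all had KYZY 2, KYZY 3 and control 3 as their 3 highest libraries. Without KYZY 2, KYZY 3 and control 3 the median was -0.04, against -0.10 over all genes, and in that fit KYZY is a single library, assumed to vary like the other groups. These 3 libraries were chosen after seeing the data, so values from this fit, here and below, follow in part from that choice.

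Psmb1 had the smallest p value, with a log2 fold change of 1.12 (SE 0.433, unadjusted p = 0.0272, adjusted p = 0.935 by edgeR). It was 0.17 without KYZY 2, KYZY 3 and control 3 and 0.52 without the 4 libraries of highest cumulus score. Psmg2 had a fitted log2 fold change of 3.43 (SE 1.52, unadjusted p = 0.0465), with KYZY 1 and all 3 stress libraries below the limit of 3 read pairs. It was 1.22 without KYZY 2, KYZY 3 and control 3. Psmb5 had a log2 fold change of 2.52 (SE 1.1, unadjusted p = 0.0475), and the sign reversed, at -0.29, without KYZY 2, KYZY 3 and control 3. Psmb6 differed by 0.39 (SE 0.186, unadjusted p = 0.0613) and Psmb7 by 0.91 (SE 0.456, unadjusted p = 0.0735), both higher in KYZY, and Psmb7 by 0.50 without KYZY 2, KYZY 3 and control 3. Psmd7, a lid subunit, differed by little although its groups did not overlap, at 22, 26.3 and 22.4 CPM in KYZY and 21, 21.7 and 21.8 CPM in stress oocytes. By role, the medians of the log2 fold changes were 0.91 in the beta ring, 0.21 in the ATPases, 0.19 in the alpha ring and 0.11 in the non-ATPase subunits, while all 3 base chaperones were negative, with a median of -0.35. The activators had a median of 0.73 and the 20S assembly chaperones 0.1. The 2 immunoproteasome genes kept had a median of 1.87, the largest, with both genes at 0 in several libraries. Without KYZY 2, KYZY 3 and control 3 these medians were 0.05 in the beta ring, 0 in the ATPases, 0.01 in the alpha ring, -0.01 in the non-ATPase subunits and -0.07 in the base chaperones. Without the 4 libraries of highest cumulus score they were 0.40 in the beta ring, -0.03 in the ATPases, -0.03 in the alpha ring, 0.04 in the non-ATPase subunits and 0.04 in the base chaperones. The activator median was -0.16 in the first of these fits and -0.3 in the second. The immunoproteasome median was negative in both, where KYZY 1, the KYZY library left, was at 0 for both genes.

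KYZY was also set against control. The edgeR test called 0 of 47 members and 0% of all genes, as did DESeq2 for the members. At an unadjusted p under 0.05 there was 1 member, against 2.74% of all genes tested. It was Psmd5, with a log2 fold change of -0.83 (SE 0.28, unadjusted p = 0.0139, adjusted p = 0.996 by edgeR). The KYZY libraries had 34, 28.1 and 22.3 CPM and overlapped with control 3 at 30.2 CPM. The single member without overlap was Psmc1, an ATPase, with 10.1, 12.4 and 13.3 CPM in KYZY and 14.4, 16.2 and 14 CPM in control oocytes and a log2 fold change of -0.32 (SE 0.189, unadjusted p = 0.124). No member was higher without overlap, against 2.43% of all genes, and 4.79% of all genes were lower without overlap. Psma4, Psmc4 and Psmb5 completed the 5 smallest p values, with log2 fold changes of -0.28 (SE 0.193), -0.32 (SE 0.249) and 1.32 (SE 1.05). Psma4 had 41.6, 43 and 50.4 CPM in KYZY and 45.6, 64.6 and 54 CPM in control oocytes, and Psmc4 had 6.98, 10.6 and 11.1 CPM in KYZY and 14.4, 10.5 and 11 CPM in control oocytes. Both overlapped between the groups. For Psmb5 the fold change was -0.04 without KYZY 2, KYZY 3 and control 3. The median over members was 0.06, against 0 over all genes, with 28 positive (59.6%, against 49.7% of all genes) and 19 negative.

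The 3 comparisons share libraries pairwise, so a member that was low in stress is lower in the first comparison and higher in the second from the same 3 stress libraries. Psmb6 is an example, since its stress libraries lay below both other groups. Psmd10 is the reverse case, with its stress libraries above both other groups.

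**Figure D4:**
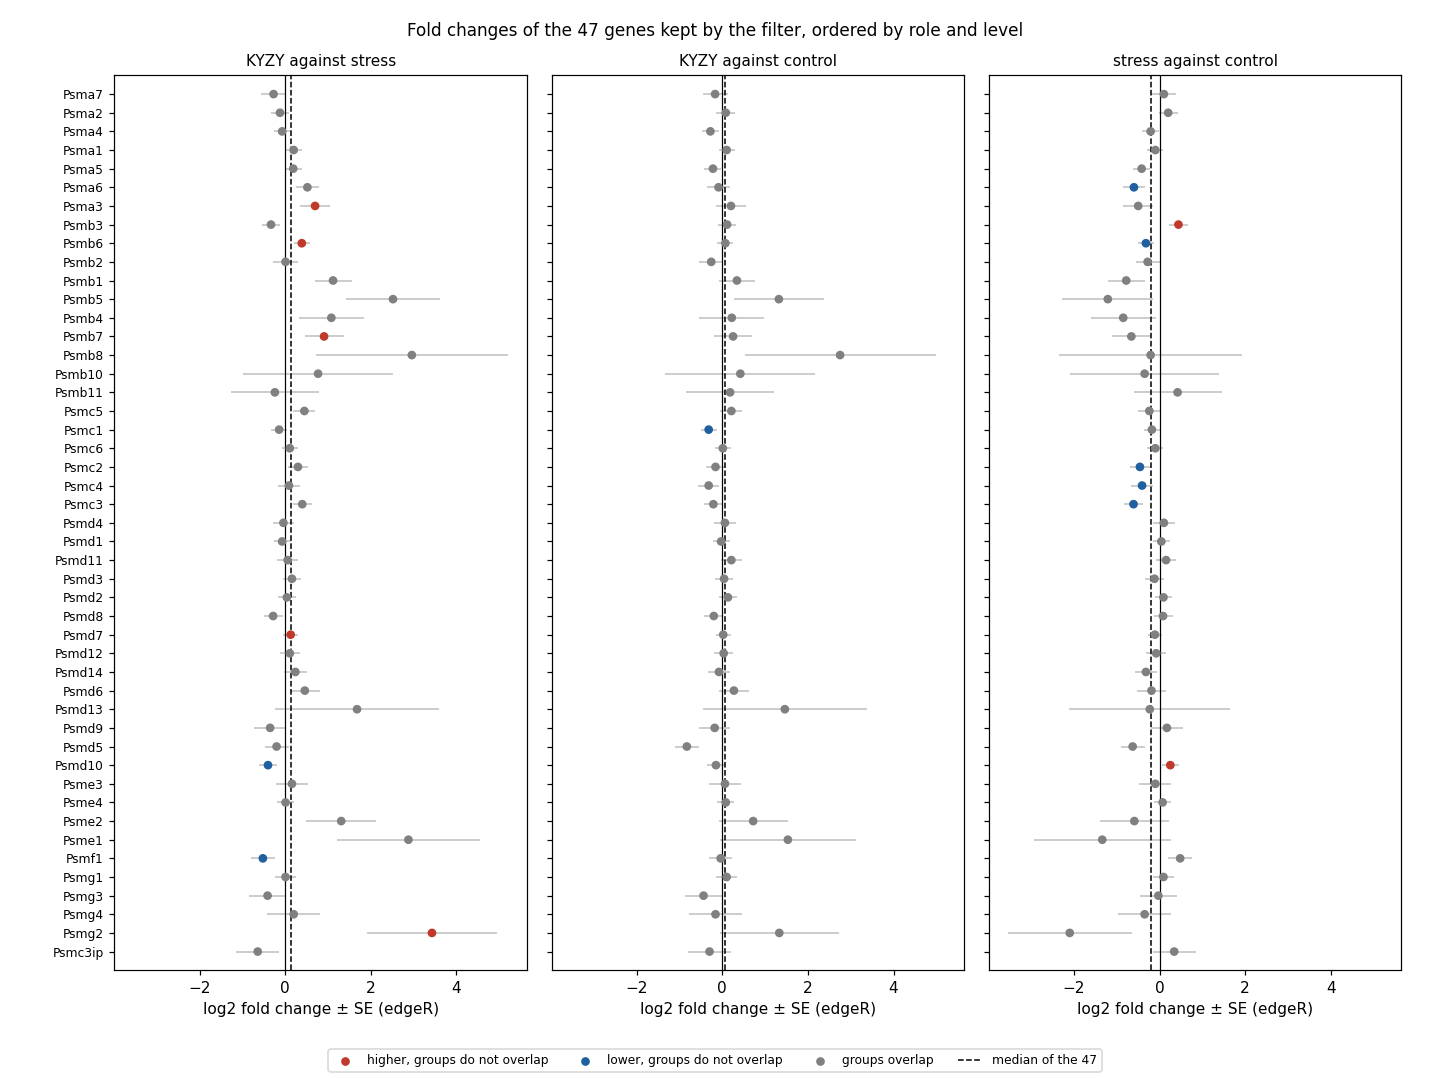
Log2 fold change with its SE from the edgeR fit for the 47 genes kept, in KYZY against stress, KYZY against control and stress against control, on 1 shared axis. Coloured points mark genes whose groups do not overlap, and the dashed lines mark the medians of the 47, at 0.13, 0.06 and -0.19; the widest errors belong to Psmb8, Psmd13, Psmb10, Psme1 and Psmg2.

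Part of the variation among libraries ran across the groups. KYZY 2, KYZY 3 and control 3 were the 3 highest libraries for 13 of 47 members (27.7%), against 11.5% of the 13890 genes tested. These 3 libraries were picked after seeing the data, so this share and those below are a description and not a test. The 13 were Psma3, Psmb1, Psmb4, Psmb5, Psmb7, Psmb8, Psmb10, Psmc5, Psmd6, Psmd13, Psme1, Psme2 and Psmg2. Among the 13 members with a mean under 5 CPM the share was 9 (69.2%), against 17.1% of all genes of that level, and among the 34 members of 5 CPM or more it was 4 (11.8%), against 5.27%. The deviation of a gene was taken as its log2(CPM + 0.5) in a library minus its median over the 9. The median deviation of the members under 5 CPM was -0.3, 0.79 and 1.39 in KYZY, -0.24, 0.02 and -0.05 in stress and -0.38, 0 and 0.73 in control libraries. For the members of 5 CPM or more it stayed between -0.06 and 0.13 in every library. Of the 13 low members, Psmg3, Psmg4, Psmb11 and Psmc3ip did not have these 3 libraries highest, and Psmb11 was lowest in control 3. A median near 0 does not mean that single genes were level: Psmb1, Psma3, Psmc5 and Psmd6, all of 5 CPM or more, had the same 3 libraries highest, and Psme3, Psmd5 and Psmd9 varied between libraries in other orders.

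Those 3 libraries were also the 3 with the highest cumulus scores, as given above, although the summed CPM of that list was higher in stress 3 than in KYZY 3 or control 3. Of its 33 genes, the number at 0 was 15, 4 and 2 in KYZY, 22, 11 and 6 in stress and 23, 15 and 3 in control libraries. Single genes were picked here with their values known. Cyp11a1, a steroid-synthesis enzyme of cumulus and granulosa cells, had 6.35, 165 and 428 CPM in KYZY, 1.12, 10.6 and 14.7 CPM in stress and 0.48, 8.76 and 228 CPM in control oocytes. H2-D1, a class I histocompatibility gene, had 0.521, 49.8 and 38.8 CPM in KYZY, 0.319, 2.4 and 14.5 CPM in stress and 0, 0.516 and 21.8 CPM in control oocytes. Tap2, the peptide transporter encoded beside Psmb8 and Psmb9, had 0.0632, 2 and 2.31 CPM in KYZY, 0, 0.0523 and 0.962 CPM in stress and 0.132, 0.0478 and 1.5 CPM in control oocytes. The 20 immune markers summed to 5.26, 94.1 and 30.6 CPM in KYZY, 17.9, 20.2 and 12.8 CPM in stress and 13.4, 13.1 and 26.1 CPM in control oocytes. Of these 20, the number at 0 was 14, 2 and 4 in KYZY, 11, 6 and 5 in stress and 14, 10 and 6 in control libraries. Lyz2, a gene of macrophages and neutrophils, had 58.1 CPM in KYZY 2 and at most 5.84 CPM elsewhere, and Ptprc, the pan-leukocyte gene, was at 0 in 5 of 9 libraries and at most 0.529 CPM. H2-Aa, a class II gene of antigen-presenting cells, did not have these 3 libraries highest, with 0.916, 4.14 and 11.8 CPM in KYZY, 13.5, 12.8 and 4.25 CPM in stress and 10, 9.39 and 14.7 CPM in control oocytes. Nor did H2-K1, class I like H2-D1, with 6.71 CPM in stress 3 and 5.22 CPM in control 3. Tnfaip6, of the cumulus list, had 5.14 CPM in stress 3 and 1.94 CPM in control 3. Cd74, of the immune list, had 4.44 CPM in stress 3, 3.03 CPM in control 3 and 2.59 CPM in KYZY 3. B2m and Star did have KYZY 2, KYZY 3 and control 3 highest. The 14 markers of oviduct epithelium scored 2.17 in KYZY 3 and 2.01 in control 3 and between 1.16 and 1.44 elsewhere, KYZY 2 included. Stroma and endothelium, with 15 markers, scored 2.0 in KYZY 3 and 1.78 in control 3 and between 0.47 and 0.93 elsewhere. The part of other cell types in the levels of the low members was not tested.

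**Figure D5:**
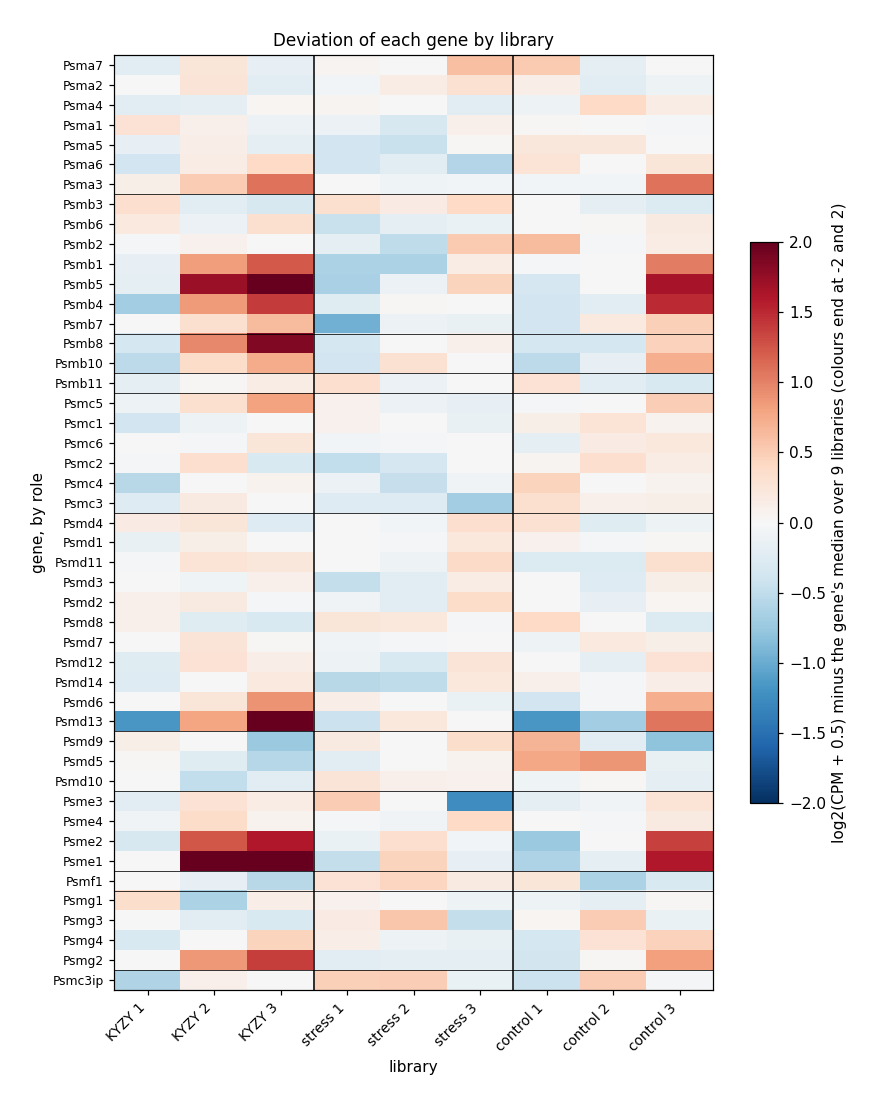
Log2(CPM + 0.5) of each of the 47 genes kept, minus its median over 9 libraries, with libraries in the columns (KYZY, stress, control from left to right) and genes in rows by role and level. Red marks a library above the gene's median; Psmb5, Psmb4, Psmb8, Psmd13, Psme1, Psme2 and Psmg2 are red in KYZY 2, KYZY 3 and control 3, while rows such as Psmd1 and Psmd7 are nearly white.

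Genes that act with the proteasome were followed in a list of 35 symbols, of which 31 were in the tables and all 31 passed the filter. The edgeR test called 0 of 31 in each comparison, and 1 in each had an unadjusted p under 0.05, a share near that over all genes (3.98% in KYZY against stress, 2.74% in KYZY against control and 2.69% in stress against control). The genes named below are therefore described by their values only. The medians of the log2 fold changes were -0.02 in KYZY against stress, 0.07 in KYZY against control and -0.03 in stress against control. Without overlap, 1 of the 31 was higher and 1 lower in KYZY against stress, against 3.76% and 5.44% of all genes. In KYZY against control 2 were higher and 2 lower, against 2.43% and 4.79%. In stress against control 0 were higher and 1 lower, against 3.51% and 4.38%. Nfe2l1, a transcription factor that raises proteasome gene expression when proteasomes are inhibited, had 50.3, 41.9 and 58.7 CPM in KYZY, 44.1, 41.3 and 42.2 CPM in stress and 66.9, 58.8 and 59.8 CPM in control oocytes. Its stress libraries lay below its control libraries, with a log2 fold change of -0.54 (SE 0.183, unadjusted p = 0.014, adjusted p = 1 by edgeR). The KYZY libraries of Nfe2l1 also lay below its control libraries, narrowly, at 58.7 CPM in KYZY 3 and 58.8 CPM in control 2. That log2 fold change was -0.3 (SE 0.182, unadjusted p = 0.132 by edgeR). Its relative Nfe2l2 had 3.71, 3.38 and 4.59 CPM in KYZY, 2.11, 2.91 and 2.5 CPM in stress and 3.14, 2.18 and 2.94 CPM in control oocytes. The KYZY libraries of Nfe2l2 lay above all others, with a log2 fold change of 0.63 against stress (SE 0.283, unadjusted p = 0.0483, adjusted p = 0.935 by edgeR) and 0.50 against control (SE 0.283, unadjusted p = 0.107).

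Nploc4, a cofactor of the unfoldase Vcp, had 5.89, 6.61 and 7.37 CPM in KYZY, 11.8, 10.1 and 6.71 CPM in stress and 9.89, 11.4 and 8.58 CPM in control oocytes. Its log2 fold change was -0.59 in KYZY against control, without overlap (SE 0.252, unadjusted p = 0.0409, adjusted p = 0.996 by edgeR), and -0.53 in KYZY against stress, with stress 3 inside the KYZY range. Adrm1, a ubiquitin receptor of the 19S base, had 64.8, 58.2 and 54.8 CPM in KYZY, 70.9, 73.2 and 72.7 CPM in stress and 92.1, 82.8 and 55.8 CPM in control oocytes, and its KYZY libraries lay below its stress libraries. Pomp, which guides the beta ring during assembly, had 6.76, 7.18 and 18.9 CPM in KYZY, 7.1, 5.65 and 6.5 CPM in stress and 5.49, 4.59 and 13.3 CPM in control oocytes. KYZY 3 and control 3 were the high libraries for Pomp, and its log2 fold change in KYZY against stress was 0.77 (SE 0.487, unadjusted p = 0.146) and 0.14 without KYZY 3. Uba6, an E1 enzyme, was highest in stress 3 and lay between 0.694 and 11.7 CPM with no order by group, and Ufd1, which acts with Nploc4, lay between 1.07 and 3.41 CPM.

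Promoters were searched for the core of the antioxidant response element, TGACNNNGC, because Nfe2l1 and Nfe2l2 bind sites of this kind in proteasome genes. RefSeq promoters on GRCm38.p6, taken as 250 bases before to 50 after the start, were given for 42 of the 50 members, with 45 starts in all. The core was found on either strand in 6 of 45 (13.3%), against 12.4% of 32851 RefSeq promoters of the same length and 14.1% of the 13738 promoters of genes that passed the filter. CCAAT, the site of the factor NF-Y, was in 15 of 45 (33.3%), against 37.4% of all. CCAAT was also searched on both strands, and these shares describe letters in a window. The 4 stretches below are shown because their core lies within 50 bases of the start and because Psmb5 and Psmb6 are among the members with the smallest p values. Each is written 5′ to 3′ on the strand of the gene, with the core in capitals (as its reverse complement in Psme4).
Psmb5, chr14:54618014-54618072, minus strand: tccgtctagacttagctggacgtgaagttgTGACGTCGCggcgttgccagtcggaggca
Psmb6, chr11:70525318-70525356, plus strand: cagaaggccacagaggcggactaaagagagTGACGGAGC
Psmd9, chr5:123228129-123228187, plus strand: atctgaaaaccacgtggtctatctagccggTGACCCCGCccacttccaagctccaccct
Psme4, chr11:30771738-30771776, plus strand: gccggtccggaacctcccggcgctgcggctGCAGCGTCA

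Counted from the RefSeq start, the core begins at -47 in Psmb5, -9 in Psmb6, -31 in Psmd9 and -7 in Psme4. The remaining 2 members with the core, Psmc6 and Psmd12, hold it at -227 and -247 on the opposite strand. The levels of these 6 genes ranged widely: Psmb5 had a median of 0.592 CPM over the 9 libraries, Psmb6 33.3, Psmc6 17.1, Psmd12 24.9, Psme4 34.4 and Psmd9 174 CPM. Psma7 and Psmd4, the highest genes per length, had no copy of the core in the window given.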

How the data were processed

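RNA of 9 oocyte libraries was analysed from 1 table per library. Expected counts, estimated per gene and written as whole numbers without normalization, are what the authors deposited. This unit was inferred from the values. The submitters' processing notes list HISAT2, StringTie, DESeq2, Trim Galore and bcl2fastq 2.20 without roles. One read pair appeared to be worth about 4 counts (401 genes at 4 in control 1, 53 at 3 and 224 at 5), so the number of independent reads is below the totals, and counting limits cover counting error only. The protocol has no molecular identifiers and no strand information.

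Counts were analysed with edgeR 4.0.16 in R 4.3.3: TMM scaling, filterByExpr (minimum count 10, minimum total 15), 13890 genes kept, a robust quasi-likelihood fit of all 9 libraries with 6 residual degrees of freedom, 2-sided F tests and Benjamini-Hochberg adjustment over all genes kept. The common biological coefficient of variation was 0.611. DESeq2 1.42.0 was an alternative. The fit was tested on simulated data. Lengths came from GENCODE M21 on GRCm38, and promoters from RefSeq (GRCm38.p6).

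Values in every library are given for the catalytic subunits and their immunoproteasome counterparts, Psma7, Psma8, Psmc3ip, the activators, Psmf1, the extremes per length of each class of at least 4 genes and the 5 smallest p values of each comparison; further genes were named because their groups do not overlap or their libraries stood out. The members, lists and tests were chosen with earlier results of these data known, and 1 gene of the list of proteasome partners is not reported here. Replicate numbers come from the titles. Deviations from the group means correlated by 0.31, 0.18 and 0.35 between same-numbered stress and control libraries, all positive, which meets the rule for pairing. Correlations of 0.40, -0.15 and 0.17 between KYZY and stress, and of 0.51, -0.14 and 0.56 between KYZY and control, do not meet it. Among stress and control libraries of unlike number, stress 1 with control 2 reached 0.23, and the other pairs were negative. Fold changes and p values come from the fit without pairing unless stated. With the replicate block, the log2 fold changes in stress against control were -0.62 for Psmc3, -0.60 for Psma6, -0.56 for Psmd5, 0.45 for Psmb3 and -0.42 for Psma5. Alternatives changed the scaling, test, filter, libraries fitted, replicate block and worth of a read pair.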

Additional observations from a re-analysis of the deposited data

How the results depend on the processing

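With adjusted p near 1, the side of the threshold says little about the named genes. Of 451 recomputed fold changes, 31 moved by over 1.5 times or changed sign, and 20 of these shifts came without the 4 libraries of highest cumulus score or without control 3, KYZY 2 and KYZY 3. Psmb5 and Psmg2 had no value where a filter removed them. Of 450 recomputed medians by role, 45 changed sign. Psmb5 in KYZY against stress was -0.29 without control 3, KYZY 2 and KYZY 3 (chosen after seeing the data); Psmb5 in KYZY against control was -0.04 in that fit and without the 4 libraries. In both fits KYZY is 1 library, assumed to vary like the others. Uba6 in stress against control was 1.84, and 0.10 without stress 3. Among all genes, stress against control gave 24 calls with DESeq2, 1 with the replicate block fitted to the groups compared, 148 without the 4 libraries and 18 without the 3. KYZY against stress gave 12 with DESeq2, 1 with the groups compared alone, 4 with that replicate block, 115 without the 4 libraries and 5 without the 3. KYZY against control gave 1, 119 and 11 with DESeq2, without the 4 and without the 3. Leaving out 1 library at a time gave 0 to 2, 0 to 1 and 0 to 3 calls in stress against control, KYZY against stress and KYZY against control. Members called were 0 throughout, except 1 (Psmd5) in stress against control without the 4 libraries. The replicate block changed no call of a member; it moved the member median in stress against control to -0.10. The member median in stress against control was -0.02 without the 4 libraries and 0.04 without the 3, and -0.26 to 0.02 with 1 library left out, where control 3 gave the highest value. In KYZY against stress it was -0.02 without the 4 and -0.04 without the 3. Members without overlap numbered 7 to 18, 7 to 23 and 2 to 8 with 1 library left out, in the same order of comparisons. A group of 2 separates more easily by construction. The share over all genes was not computed in these settings, so these counts are not read as a result about the members. The cause of the other shifts was not tested. In stress against control, members had a median SE of 0.261 (log2), and the genes near the limit of 3 read pairs had wider errors. Differences of the size of that SE were not detectable, and larger ones were not called either, such as -0.61 for Psmc3 (SE 0.226).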
